A study of Rattus norvegicus with 15 samples.

Results

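Whole kidneys of rats given 10 mg/kg cisplatin were compared with whole kidneys of rats given saline, on 3 arrays each, which were 6 of the 15 arrays of the study and were chosen by their titles alone. The rats of all groups were male Wistar/ST animals, 8 weeks old, with no genetic change stated, and cisplatin or an equal volume of saline was given intraperitoneally. The other 9 arrays held isolated proximal tubules after saline, 2 mg/kg or 10 mg/kg. RNA was measured on the Rat Genome Survey Microarray, a 1-colour array read by chemiluminescence. How long after dosing the kidneys were taken is not stated in the labels. Nor do they state that each array was a separate animal, and the p-values reflect array-to-array spread, which may be technical.

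Cisplatin is a platinum drug that binds DNA. In the kidney it is taken up from the blood by transporters of the proximal tubule, the nephron segment that recovers most filtered solutes, and injury there limits its use. The proximal tubule runs from the convoluted S1 and S2 segments in the cortex to the straight S3 segment in the outer medulla, and S3 is known as the segment most damaged by the drug. A whole kidney also contains glomeruli, distal nephron, vessels and resident immune cells, so each value below is a level over the whole mixture. Fewer cells of a type and less RNA per cell cannot be told apart in such samples.

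The 6 arrays listed between 26207 and 26482 of 26857 probes, with median signals from 201 to 269. After quantile normalization the saline arrays correlated at 0.867 to 0.932 and the cisplatin arrays at 0.882 to 0.904 across probes. Saline replicate 3 stood apart, at 0.807 to 0.876 with the other 5 arrays against 0.851 to 0.932 among those 5. Cdh16, which encodes the kidney-specific cadherin, had log2 signals of 16.38, 16.36 and 16.39 in saline kidneys and 16.21, 16.37 and 16.29 after cisplatin, and lay at percentile 99.4 of all probes in both groups. Slc5a2, which encodes the S1 glucose carrier SGLT2, lay at percentile 47.7 in saline kidneys and is not known to be above background there, since no background or detection value is given. The same limit holds after cisplatin for Chdh, Nrg1, Slc7a9, Fhit, Hnf4a and Slc6a13, for example, which lay at percentiles 28.7 to 39.2. The size of their falls is uncertain for that reason. In saline kidneys the limit also holds for Egr2, Ccl20, Cdkn1a, Cxcl2 and Oasl, for example, so the size of their rises is uncertain too. All folds are therefore ratios of signals.

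Of 26601 probes tested with limma, 1717 (6.45%) differed at a Benjamini-Hochberg adjusted p under 0.05, 779 of them higher (2.93%) and 938 lower (3.53%) after cisplatin. The median log2 change was 1.92 among the higher and -1.95 among the lower probes, and 361 and 442 of them changed at least 4-fold. Calls were more frequent among bright probes, from 1.02% of the dimmest of 4 equal groups to 15.4% of the brightest. With no scaling of the arrays 356 probes passed, 107 higher and 249 lower, so 30.1% of calls were higher against 45.4% after quantile normalization. With the values of the smaller table that the authors deposited, 749 of 1219 probes passed, and 28.3% of these were higher. The arrays of the groups did not overlap for 26.4% of all probes. Without saline replicate 3, 1179 passed, 457 higher and 722 lower.

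A gene name was available for 401 probes, of which 56 rose, 186 fell and 159 did not pass. All 401 belong to the table of 1219 probes that the authors deposited, whose selection rule is not given here and could have drawn on these arrays, so no count of named genes below is independent evidence of a direction. The median log2 change was -1.24 over the named genes and 0.02 over all tested probes. Counts of rises and falls in the gene lists below are thus to be read beside 56 and 186 of all 401 named genes. Among the 26200 tested probes with no name 723 rose and 752 fell. The calls of 44 of the 56 rising and 135 of the 186 falling genes held when any single whole kidney array was left out, and those of 18 and 64 held under each of the 16 alternatives in which the gene could be tested.

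**Figure D1:**
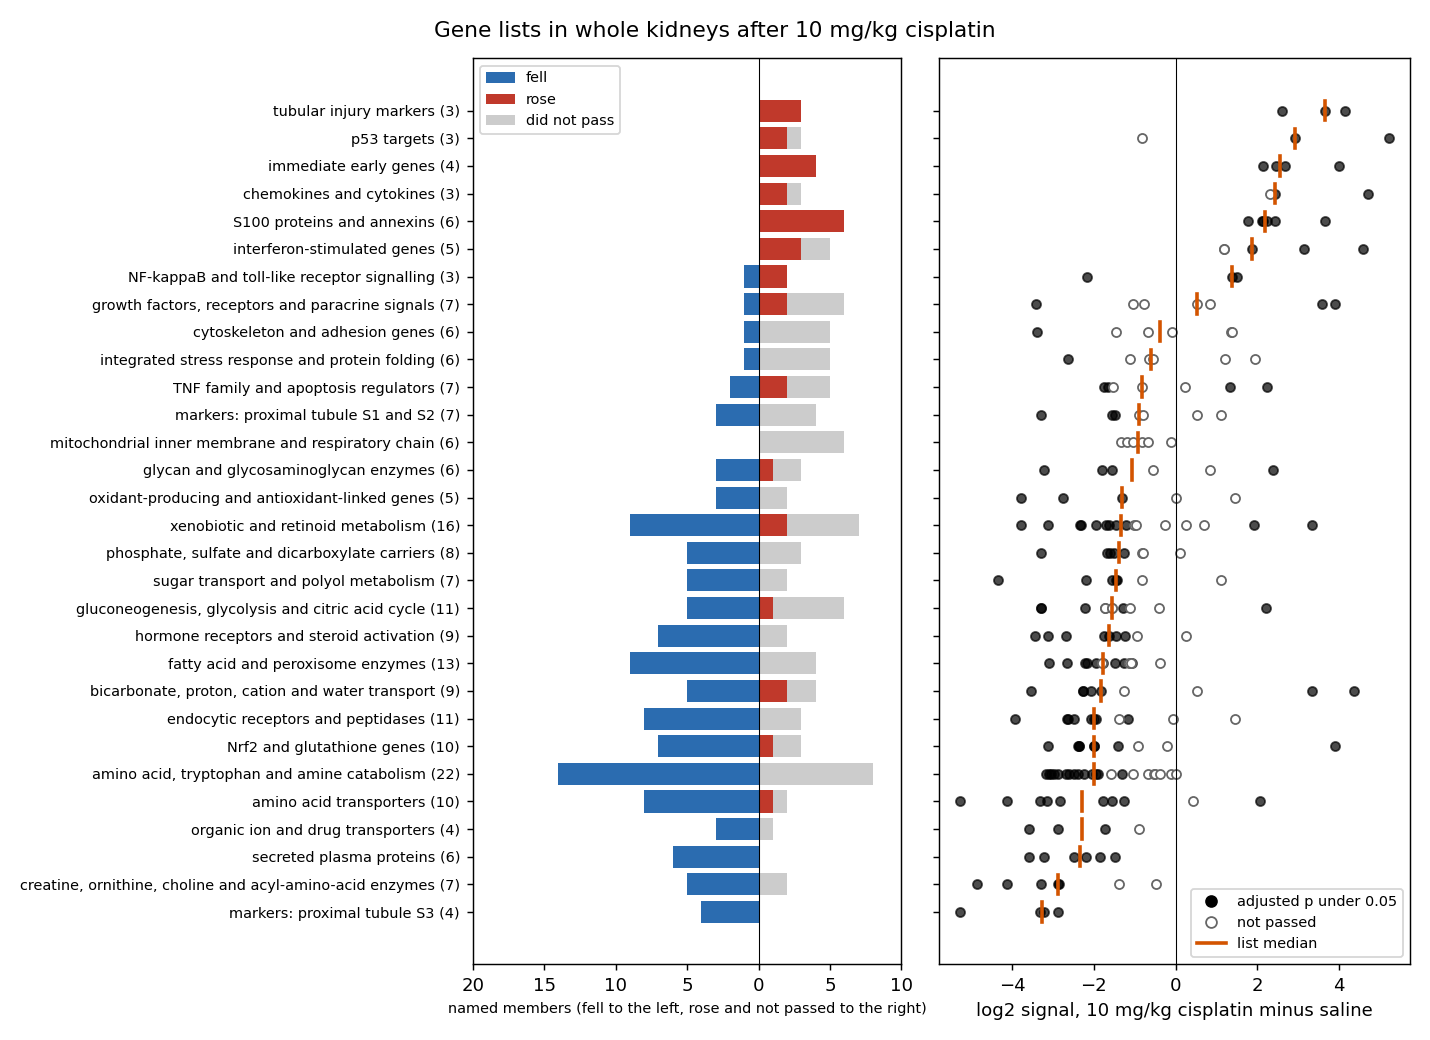
Gene lists with at least 3 named members, ordered by the median log2 change after 10 mg/kg cisplatin. The left panel counts named members that fell, rose or did not pass, and the right panel shows each member (filled where the limma adjusted p was under 0.05) with the list median as an orange line. Injury markers have the highest median, 3.67, and S3 markers the lowest, -3.26.

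Genes that mark injured tubule cells were among the most raised. All 3 named tubular injury markers and all 6 named S100 proteins and annexins rose, against 56 of all 401 named genes and 2.93% of all probes. Havcr1, which encodes the phagocytic surface receptor KIM-1 of injured proximal tubule cells, had log2 signals of 9.16, 9.02 and 8.40 in saline kidneys and 12.85, 12.63 and 12.10 after cisplatin. The groups did not overlap, and the difference of 3.67 ± 0.41 (SE; limma adjusted p = 0.000229) is a 12.7-fold ratio. Lcn2, which encodes the iron-siderophore binding protein NGAL, had 8.39, 9.05 and 9.63 in saline kidneys and 13.35, 12.87 and 13.32 after cisplatin. Every cisplatin array lay above every saline array, and the fold was 17.8 (limma adjusted p = 0.000431). Spp1, which encodes the secreted phosphoprotein osteopontin, was already bright in saline kidneys at 16.05, 14.88 and 15.91 and reached 18.63, 18.11 and 17.94. Its rise of 2.62 ± 0.58 did not pass without saline replicate 2 (2.25, limma adjusted p = 0.0640) or without cisplatin replicate 1 (2.41, limma adjusted p = 0.0539).

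S100a6, which encodes the calcium-binding protein calcyclin, rose 12.6-fold, from log2 signals of 12.50, 11.24 and 12.39 to 16.13, 15.41 and 15.54. S100a10 and Anxa2 encode the subunits of 1 calcium-regulated membrane complex and rose by 2.12 ± 0.38 and 2.14 ± 0.40 (limma adjusted p = 0.00431 and 0.00531). S100a4, S100a11 and Anxa1 rose by 1.76, 2.23 and 2.44 on the log2 scale. Within each of these 6 genes the arrays of the groups did not overlap, as was the case for 13.7% of all probes in this direction. Among the 401 named genes 327 had groups that did not overlap, in either direction. Without scaling S100a4, S100a10, S100a11, Anxa1 and Anxa2 did not pass, at limma adjusted p between 0.111 and 0.408, and S100a6 did.

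p53 is the transcription factor that answers DNA damage. Of its 3 named targets 2 rose, beside 56 of all 401 named genes. Plk2, a polo-like kinase gene, rose 37.4-fold, from 9.49, 9.52 and 6.91 in saline kidneys to 13.58, 14.12 and 13.90 after cisplatin (5.23 ± 0.56, limma adjusted p = 0.000193). Saline replicate 3 was low for this gene. Without it the log2 difference of Plk2 was 4.36, which still passed. Cdkn1a, which encodes the cell cycle inhibitor p21, had 6.48, 6.29 and 6.89 in saline kidneys and 8.52, 10.18 and 9.73 after cisplatin, a rise of 2.93 ± 0.57 (limma adjusted p = 0.00761). Cd82, a tetraspanin gene, stood at -0.81 ± 0.29 without passing (limma adjusted p = 0.117). Of 2 named DNA repair and genome maintenance genes Fhit fell by 3.77 ± 0.53, from 11.10, 11.47 and 11.08 to 6.98, 6.88 and 8.50. Foxm1, a transcription factor gene of proliferating cells, had 1.93 ± 0.63 (limma adjusted p = 0.0907). With limma neither of the 2 named cell cycle genes passed, while 2 of 2 had an unadjusted p under 0.05, as did 5438 of all 26601 probes.

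Chemokines are small secreted proteins that attract leukocytes. Of 3 named ones Ccl20 and Cxcl2 rose, beside 56 of all 401 named genes. Ccl20, which draws cells bearing the receptor CCR6, was listed on 2 arrays of each group, at 5.94 and 5.18 in saline kidneys and 10.22 and 10.32 after cisplatin. The difference of 4.71 ± 0.72 (limma adjusted p = 0.00255) thus rests on n = 2 per group, and it passed in the 11 of 16 alternatives in which it could be tested. Cxcl2, a neutrophil attractant, rose from 6.17, 6.75 and 7.35 to 9.34, 8.74 and 9.51 (2.44 ± 0.64, limma adjusted p = 0.0344). It did not pass without saline replicate 1 or 2 or without cisplatin replicate 1, 2 or 3, where it lay between 2.15 and 2.67 with limma adjusted p between 0.0503 and 0.110, nor with median centring or no scaling (limma adjusted p = 0.111 and 0.167). Ccl2, the monocyte attractant, had 9.37, 7.07 and 10.11 against 11.30, 11.26 and 10.96. Its groups did not overlap, but the saline arrays were widely spread and its difference of 2.32 ± 0.81 did not pass (limma adjusted p = 0.113). Of the 6 macrophage markers only the complement genes C1qa and C1qc had a named probe. C1qa had 11.60, 11.16 and 11.85 in saline kidneys and 13.23, 12.71 and 12.55 after cisplatin, and C1qc 10.98, 10.21 and 10.58 against 12.30, 12.03 and 11.97. They were 2.44-fold and 2.84-fold higher without passing (limma adjusted p = 0.0753 and 0.0527), though both passed with the variance trend (limma adjusted p = 0.0128 and 0.00887), and their part in the chemokine values was not tested.

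NF-kappaB transcription factors drive many inflammatory genes, and their recognition sequence was looked for in promoters from 250 bases before to 50 after the gene start (RefSeq, GRCr8), which were matched for 329 of the 401 named genes. The NF-kappaB consensus, on both strands, was present in 7.51% of all 33469 promoters, in 9 of the 47 promoters of rising genes and in 12 of the 153 of falling genes. The shares are descriptions, and a match is not evidence of binding. The chemokine promoters and that of Lcn2 are shown because they belong to rising inflammatory genes with a match, which is in capitals. In Ccl20 (chr9:91836909-91837208, plus strand) the match began 89 bases before the start, in Cxcl2 (chr14:17467206-17467505, minus strand) the first of 2 overlapping matches began 74 bases before it, and in Lcn2 (chr3:36081731-36082030, minus strand) the match began 242 bases before it.
Ccl20: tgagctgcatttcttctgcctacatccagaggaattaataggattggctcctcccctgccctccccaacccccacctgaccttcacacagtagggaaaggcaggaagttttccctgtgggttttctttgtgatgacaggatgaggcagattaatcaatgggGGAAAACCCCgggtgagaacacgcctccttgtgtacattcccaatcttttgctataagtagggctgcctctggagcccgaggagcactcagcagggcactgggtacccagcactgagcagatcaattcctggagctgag
Cxcl2: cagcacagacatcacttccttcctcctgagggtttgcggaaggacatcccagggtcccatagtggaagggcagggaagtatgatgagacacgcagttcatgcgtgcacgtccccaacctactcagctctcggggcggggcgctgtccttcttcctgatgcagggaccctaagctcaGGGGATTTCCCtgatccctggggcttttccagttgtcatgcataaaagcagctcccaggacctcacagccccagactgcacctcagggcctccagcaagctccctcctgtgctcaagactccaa
Lcn2: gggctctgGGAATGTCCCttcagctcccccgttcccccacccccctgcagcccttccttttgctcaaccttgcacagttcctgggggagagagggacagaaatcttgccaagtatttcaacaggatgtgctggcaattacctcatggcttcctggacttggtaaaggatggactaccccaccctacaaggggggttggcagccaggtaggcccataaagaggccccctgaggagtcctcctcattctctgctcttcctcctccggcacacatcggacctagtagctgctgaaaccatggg

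The NF-kappaB subunit gene Nfkb2 rose from 11.84, 12.13 and 11.83 to 13.15, 13.31 and 13.46 (1.38 ± 0.29, limma adjusted p = 0.0107), and its promoter also held the consensus, beginning 20 bases before the start. Nfkbie, which encodes an inhibitor of the factor, rose by 1.504 ± 0.37, a call that was lost without saline replicate 2 or 3 or cisplatin replicate 1 or 3 (limma adjusted p between 0.0530 and 0.0924). Tlr3, a receptor for double-stranded RNA, fell by 2.17 ± 0.48, and lost its call without saline replicate 1 or cisplatin replicate 1 (limma adjusted p = 0.0533 and 0.0594). None of these 3 passed with median centring, where limma adjusted p ran from 0.0678 to 0.216.

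Interferon-stimulated genes encode antiviral and antigen-processing proteins, and 3 of 5 rose, beside 56 of all 401 named genes. Isg20, an exonuclease gene, went from 9.59, 10.28 and 10.40 to 14.17, 14.18 and 15.72, a 24.2-fold ratio (limma adjusted p = 8.22e-05). Oasl, of the oligoadenylate synthetase family, rose from 7.96, 6.82 and 6.70 to 10.83, 10.54 and 9.54 (3.14 ± 0.47, limma adjusted p = 0.00149). For both genes the groups were well apart. Irf1, an interferon regulatory transcription factor gene, rose by 1.88 ± 0.36, but not with median centring (1.56, limma adjusted p = 0.0940) or without scaling (1.46, limma adjusted p = 0.391). Rsad2 and Tap1 had 1.19 ± 0.56 and 1.18 ± 0.65 with overlapping groups (limma adjusted p = 0.246 and 0.331). In isolated tubules after the same dose Rsad2 stood at 4.05 ± 0.56, and the difference between the tissues did not pass (limma adjusted p = 0.204).

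**Figure D2:**
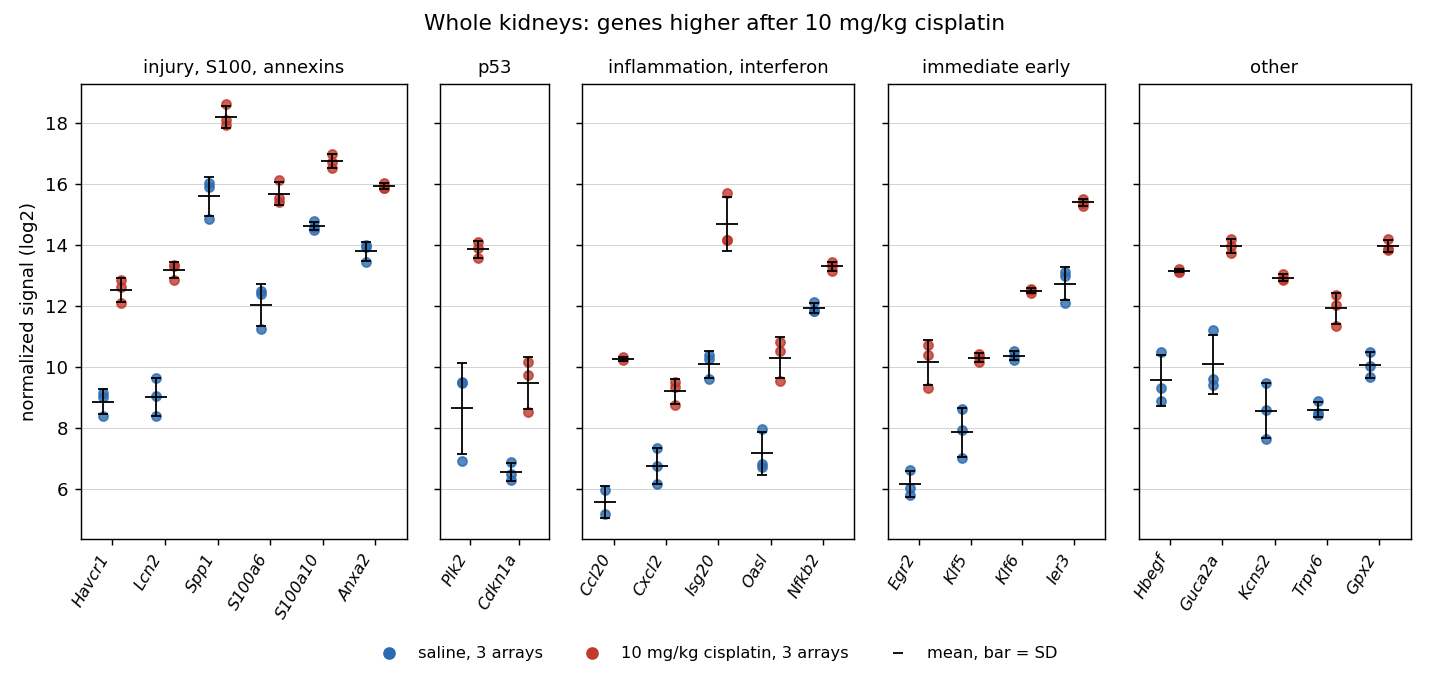
Normalized log2 signals of genes that rose, on the 3 saline arrays (blue) and the 3 arrays after 10 mg/kg cisplatin (red), with the mean and SD in black. For every gene shown the red points lie above the blue ones, and Ccl20 has 2 points per group.

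Immediate early genes are transcribed within minutes of a stimulus with no need for new protein. All 4 named ones rose, beside 56 of all 401 named genes. Egr2, a zinc finger transcription factor gene, was dim in saline kidneys at 5.78, 6.62 and 6.04 and reached 9.32, 10.73 and 10.41 (16.04-fold, limma adjusted p = 0.00458). Klf6 and Klf5 encode Krüppel-like transcription factors. Klf6 rose from 10.51, 10.37 and 10.24 to 12.53, 12.42 and 12.57, with little spread in either group, and Klf5 from 8.62, 7.93 and 7.003 to 10.33, 10.44 and 10.16. Ier3, which encodes a regulator of cell survival, rose by 2.67 ± 0.37 from an already bright 12.98, 12.11 and 13.12. Without scaling Klf5 and Klf6 did not pass (limma adjusted p = 0.140 and 0.201). The CArG box, bound by serum response factor, was present on either strand in 1.64% of all promoters in 2 of the 47 promoters of rising genes, those of Egr2 and Klf6, and in 1 of the 153 of falling genes. The Egr2 promoter (chr20:21054392-21054691, minus strand, GRCr8 from RefSeq) is shown as the example, with the box in capitals beginning 83 bases before the start.
Egr2: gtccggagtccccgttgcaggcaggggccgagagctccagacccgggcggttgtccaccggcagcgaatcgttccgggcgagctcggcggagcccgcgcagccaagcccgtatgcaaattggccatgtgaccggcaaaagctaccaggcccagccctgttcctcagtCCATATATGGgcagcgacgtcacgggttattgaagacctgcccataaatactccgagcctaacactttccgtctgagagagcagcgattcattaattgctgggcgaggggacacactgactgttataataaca

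Paracrine signals and cell death regulators moved in both directions. Hbegf, which encodes a ligand of the epidermal growth factor receptor, rose from 8.89, 9.31 and 10.50 to 13.21, 13.12 and 13.13, a 12.04-fold ratio (limma adjusted p = 0.000304). The cisplatin arrays were nearly equal while saline replicate 3 was the highest of its group. Guca2a, which encodes the peptide guanylin, rose from 9.42, 9.62 and 11.21 to 14.20, 13.99 and 13.75 (3.89 ± 0.44, limma adjusted p = 0.000251). Its relative Guca2b, the uroguanylin gene, had 0.52 ± 0.39 (limma adjusted p = 0.496), and Pdgfa, a platelet-derived growth factor gene, 0.85 ± 0.33 (limma adjusted p = 0.152). Nrg1, which encodes the ErbB receptor ligand neuregulin, fell 10.6-fold and is described further below. Tnfrsf1a, the gene of a TNF receptor, and Tnfsf13, the gene of the TNF family ligand APRIL, rose by 1.32 ± 0.28 and 2.24 ± 0.33, and Bad, which encodes a pro-apoptotic BCL2 family member, fell by 1.74 ± 0.34. None of these last 3 passed without scaling (limma adjusted p = 0.619, 0.107 and 0.158), and Tnfrsf1a also not with median centring (limma adjusted p = 0.215).

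Genes of other roles rose as well. Kcns2, a modifying subunit gene of voltage-gated potassium channels, rose 20.5-fold from 9.48, 7.65 and 8.59 to 13.07, 12.84 and 12.88. Trpv6, an epithelial calcium channel gene, rose from 8.48, 8.44 and 8.88 to 11.36, 12.05 and 12.38. They were the only risers among 9 named genes of bicarbonate, cation and water transport, of which 5 fell (3 with median centring or no scaling). Cyp26b1, which encodes a retinoic acid hydroxylase, rose by 3.33 ± 0.49 and Ces2c, a carboxylesterase gene, by 1.91 ± 0.26 among 16 genes of xenobiotic and retinoid metabolism, of which 9 fell (5 with median centring and 2 without scaling). The falls in both lists are to be read beside 186 falls among all 401 named genes. Ugcg, which encodes glucosylceramide synthase, rose by 2.38 ± 0.40, and Zfand2a, a zinc finger gene induced by arsenite, by 2.74 ± 0.47. Ces2c and Ugcg did not pass without scaling (limma adjusted p = 0.238 and 0.111), whereas Kcns2, Trpv6, Cyp26b1 and Zfand2a passed under each alternative in which they were tested.

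Markers of the S3 segment were lower after cisplatin. Of 8 genes on the S3 list 4 had a named probe, and all 4 fell, with a median log2 change of -3.26. Among all 401 named genes 186 fell and the median was -1.24. Over all probes 3.53% were called lower and the median was 0.02. Slc7a12, an amino acid carrier gene, fell from 14.91, 14.08 and 15.08 in saline kidneys to 9.69, 8.70 and 9.88 after cisplatin. That is 2.59% of the saline signal (-5.27 ± 0.59, limma adjusted p = 0.000232), with no overlap. Slc3a1, which encodes the heavy chain of the cystine and dibasic amino acid carrier, went from 17.39, 17.29 and 17.24 to 13.95, 13.96 and 14.06, with both groups tight, to 10.0% of the saline signal. Slc22a7, the organic anion carrier gene, went from 11.75, 11.94 and 11.88 to 9.22, 8.52 and 9.22 (-2.87 ± 0.55, limma adjusted p = 0.00629). Gc, which encodes the vitamin D binding protein, fell by 3.21 ± 0.80, but its call was lost without any single whole kidney array (between -3.42 and -2.89, limma adjusted p between 0.0534 and 0.0891).

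Markers of S1 and S2 gave a mixed picture. Of 9 genes on that list 7 had a named probe, 3 fell, 4 did not pass and the median change was -0.89. Among all 401 named genes 186 fell and the median was -1.24. Gatm, which encodes the first enzyme of creatine synthesis, fell from 13.37, 13.001 and 13.49 to 9.18, 10.25 and 10.51 (-3.31 ± 0.47, limma adjusted p = 0.0011). Miox, the inositol oxygenase gene, and Spp2 fell by 1.56 and 1.49 on the log2 scale, and neither passed with median centring (limma adjusted p = 0.120 and 0.126). Slc34a1, the main renal phosphate carrier gene, had 18.48, 18.58 and 18.18 against 17.31, 17.79 and 17.77. Its groups were apart by 0.79 ± 0.29 without passing (limma adjusted p = 0.130), and Slc22a6, the organic anion uptake carrier gene, stood at -0.89 ± 0.40 (limma adjusted p = 0.223). Slc5a2 and the sodium bicarbonate carrier gene Slc4a4 had 1.12 ± 0.69 and 0.53 ± 0.42 (limma adjusted p = 0.397 and 0.530), with overlapping groups, but Slc5a2 passed as a rise without cisplatin replicate 1 (2.12, limma adjusted p = 0.0285). Spp2 lost its call without every single array other than cisplatin replicate 2 (between -1.61 and -1.20, limma adjusted p between 0.0539 and 0.107). Whether the lists differ from each other was not tested. No marker of podocytes, endothelium, thick ascending limb, distal convoluted tubule, collecting duct, stroma, neutrophils, T and B cells or red cells had a named probe.

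HNF4 and HNF1 are transcription factors of the proximal tubule, and their sites were looked for in the same promoters. The HNF4 letters CAAAGTCCA, on either strand, were in 0.391% of all promoters, in 3 of the 153 promoters of falling genes (1.96%) and in 1 of the 47 of rising genes (2.13%), that of Trpv6. The HNF1 consensus was in 0.335% of all promoters, in 2 of the 153 and in 0 of the 47. Slc3a1 (chr6:15394700-15394999, minus strand) had an HNF4 match, here on the opposite strand, 89 bases before the start, and Slc7a12 (chr2:88868054-88868353, minus strand) an HNF1 match 88 bases before it. These promoters of the S3 markers with the smallest adjusted p are shown with the match in capitals (GRCr8, RefSeq).
Slc3a1: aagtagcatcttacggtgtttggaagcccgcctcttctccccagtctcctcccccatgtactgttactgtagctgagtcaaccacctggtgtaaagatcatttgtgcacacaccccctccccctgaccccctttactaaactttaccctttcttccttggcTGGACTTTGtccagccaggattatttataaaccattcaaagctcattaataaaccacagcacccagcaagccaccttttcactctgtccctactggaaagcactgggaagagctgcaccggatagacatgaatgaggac
Slc7a12: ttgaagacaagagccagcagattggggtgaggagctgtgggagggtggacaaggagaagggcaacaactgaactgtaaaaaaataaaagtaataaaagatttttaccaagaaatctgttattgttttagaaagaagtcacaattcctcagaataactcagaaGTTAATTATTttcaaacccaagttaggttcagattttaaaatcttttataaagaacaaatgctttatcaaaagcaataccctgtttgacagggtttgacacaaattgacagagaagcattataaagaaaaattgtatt

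The HNF4 gene itself, Hnf4a, had 10.92, 11.03 and 10.58 in saline kidneys and 6.85, 7.48 and 7.90 after cisplatin. The groups were far apart, and the gene fell by 3.43 ± 0.93 with a limma adjusted p of 0.0415 (0.0222 with the fit limited to the 6 whole kidney arrays). Its call was lost without any single whole kidney array (between -3.68 and -3.15, limma adjusted p between 0.0723 and 0.112). Of 9 named hormone receptors and steroid-activating genes 7 fell, beside 186 of all 401 named genes. Prlr, the prolactin receptor gene, went from 13.12, 13.07 and 13.14 to 10.24, 10.81 and 10.27 (-2.67 ± 0.42, limma adjusted p = 0.00208). Ghr, the growth hormone receptor gene, went from 11.71, 11.63 and 10.81 to 6.24, 8.86 and 9.68 (-3.12 ± 0.67, limma adjusted p = 0.0128), with the cisplatin arrays spread over a wide range. Its difference was -2.11 without cisplatin replicate 1 and -3.83 without cisplatin replicate 3, and both passed. Pth1r, the parathyroid hormone receptor gene, and Dio1, which encodes a thyroid hormone deiodinase, fell by 1.74 ± 0.37 and 1.64 ± 0.29, and neither passed without scaling (limma adjusted p = 0.119 and 0.175). Ghr did not pass with the fit limited to the 6 whole kidney arrays (limma adjusted p = 0.147). Leaving out any single whole kidney array took this list from 7 falls to 5, and median centring or no scaling to 3.

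**Figure D3:**
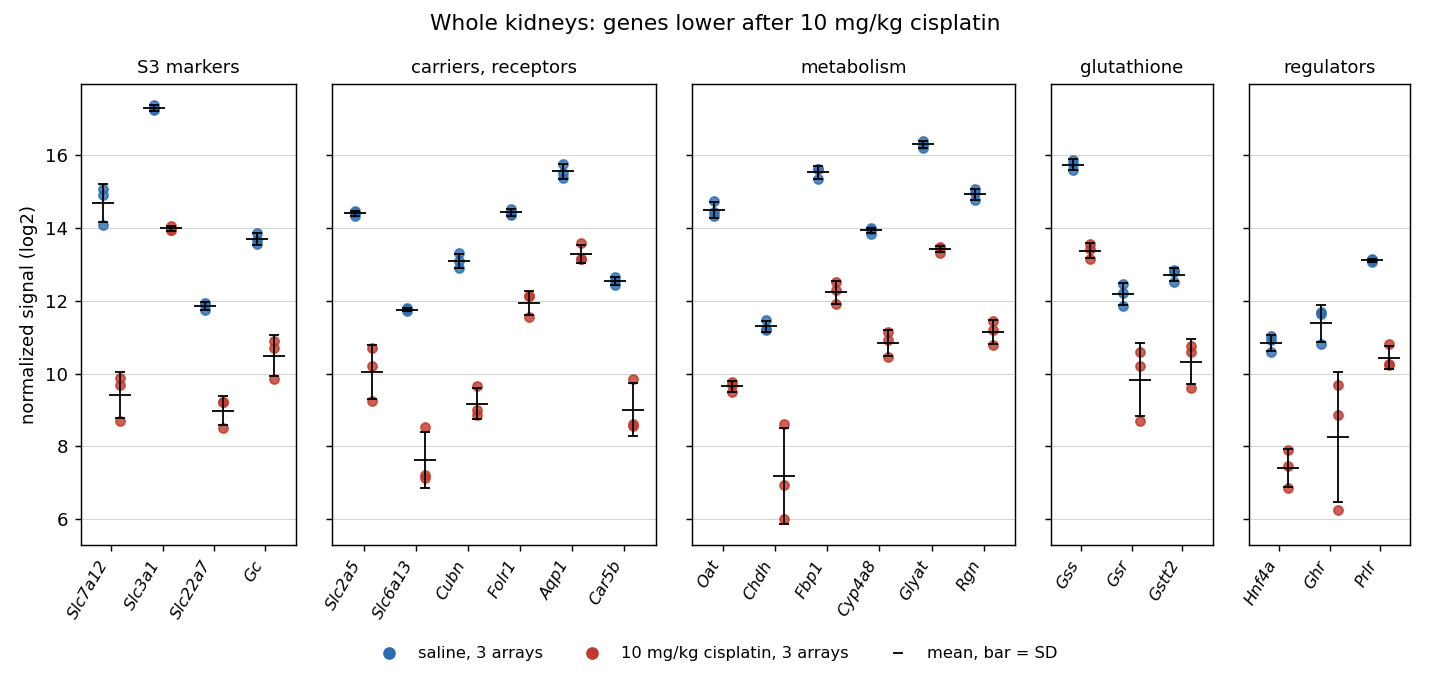
Normalized log2 signals of genes that fell, on the 3 saline arrays (blue) and the 3 arrays after 10 mg/kg cisplatin (red), with the mean and SD in black. Every red point lies below the blue ones of its gene, and the cisplatin arrays of Chdh and Ghr are spread the most widely.

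Brush border carriers recover filtered amino acids, sugars and ions. Of 10 named amino acid transporters, not all of them of the brush border, 8 fell and 1 rose. That is to be read beside 186 falls and 56 rises among all 401 named genes. With median centring or no scaling 5 of the 10 fell. Slc6a13, a carrier gene for GABA and taurine, went from 11.78, 11.80 and 11.71 to 7.21, 8.52 and 7.15 (-4.13 ± 0.38, limma adjusted p = 8.22e-05). Slc7a9, the light chain gene that partners Slc3a1, went from 10.47, 10.14 and 10.56 to 7.16, 7.19 and 7.38, so it fell by 3.15 ± 0.34, and Slc3a1 fell by 3.32 ± 0.37. Slc6a6, the taurine carrier gene, fell by 2.82 ± 0.47. Slc16a10, an aromatic amino acid carrier gene, was the exception at 2.07 ± 0.49, which lost its call without saline replicate 3 (1.69, limma adjusted p = 0.0817) or cisplatin replicate 1 (1.86, limma adjusted p = 0.0710). The carrier gene Slc7a7 had 0.42 ± 0.39 (limma adjusted p = 0.613).

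Slc2a5, the fructose carrier gene GLUT5, had 14.33, 14.42 and 14.46 in saline kidneys and 10.72, 10.20 and 9.25 after cisplatin, 4.91% of the saline signal (limma adjusted p = 8.22e-05). It led the 5 of 7 genes that fell on the list of sugar transport and polyol metabolism, beside 186 of all 401 named genes. The 5 include the crystallin gene Crym, which is of neither kind, and the count was 2 with median centring or no scaling. Of 4 organic ion carriers 3 fell, among them Slc22a25 (-3.58 ± 0.53) and the carnitine carrier gene Slc22a5 (-1.73 ± 0.27), the latter not without scaling (limma adjusted p = 0.146). Slc12a8, a cation-chloride cotransporter family gene, fell by 3.43 ± 0.38. Aqp1, the water channel gene of the proximal tubule and thin descending limb, went from 15.51, 15.39 and 15.77 to 13.59, 13.14 and 13.15, and the glycerol and water channel gene Aqp7 from 12.67, 12.71 and 12.91 to 10.73, 10.52 and 10.23. Both thus stood at about the same share of the saline signal, 20.8% and 20.7%. Car5b, a mitochondrial carbonic anhydrase gene, fell by 3.54 ± 0.46 (limma adjusted p = 0.000749). Of 8 phosphate, sulfate and dicarboxylate carriers and partners 5 fell, a count that stood between 2 and 4 when a single whole kidney array was left out. Pdzk1, the scaffold gene of the brush border, fell by 1.26 ± 0.27 and did not pass with median centring (limma adjusted p = 0.154).

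Filtered proteins are taken up by endocytic receptors and cut by brush border peptidases. The list of receptors and peptidases also holds genes that are not of the brush border. Beside 186 falls among all 401 named genes, 8 of its 11 named members fell. That count was 5 without saline replicate 1 or 2, between 6 and 7 without another whole kidney array, and 4 without scaling. Cubn, which encodes the receptor cubilin, went from 13.10, 13.30 and 12.91 to 9.65, 8.86 and 9.01, 6.57% of the saline signal (limma adjusted p = 0.000148). Folr1, the folate receptor gene, went from 14.37, 14.40 and 14.54 to 12.14, 12.14 and 11.56. Anpep, the aminopeptidase N gene, fell by 1.99 ± 0.40, though not without scaling (limma adjusted p = 0.0775). All 6 named genes of secreted plasma proteins fell, a count that stood at 2 or 3 when a single whole kidney array was left out. Serpinf2 (alpha-2-antiplasmin) and Serpinc1 (antithrombin) held in each case, at -3.59 ± 0.53 and -2.48 ± 0.37. Cdh2, which encodes N-cadherin of the proximal tubule, fell from 12.01, 11.97 and 11.93 to 9.38, 8.28 and 8.09 (limma adjusted p = 0.000154), beside the even levels of Cdh16 given above.

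Beside 186 falls among all 401 named genes, 14 of 22 named genes of amino acid, tryptophan and amine catabolism fell and none rose. Without scaling 9 fell. Among them Cbs, of homocysteine removal, went from 12.70, 12.80 and 12.85 to 8.59, 10.43 and 10.07, and Ivd, of leucine breakdown, from 13.18, 13.18 and 13.74 to 10.34, 10.88 and 9.72. The groups of both genes were separate, and the genes fell by 3.09 ± 0.58 and fell by 3.05 ± 0.38. Ass1, which makes the arginine precursor argininosuccinate, fell by 2.97 ± 0.61, Fah, of tyrosine breakdown, by 2.68 ± 0.32 and the tryptophan pathway genes Acmsd and Kynu by 2.89 ± 0.59 and 2.40 ± 0.30. Hnmt, which inactivates histamine, fell by 3.18 ± 0.67 (limma adjusted p = 0.0116).

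Of 7 creatine, ornithine, choline and acyl-amino-acid enzymes 5 fell, beside 186 of all 401 named genes. Oat, which encodes ornithine aminotransferase, had 14.45, 14.32 and 14.75 in saline kidneys and 9.69, 9.49 and 9.77 after cisplatin, 3.44% of the saline signal, and the smallest adjusted p of the named genes (limma adjusted p = 3.28e-05). Chdh, the choline dehydrogenase gene, went from 11.20, 11.23 and 11.47 to 5.999, 6.94 and 8.62, with a wide spread after cisplatin (-4.11 ± 0.87, limma adjusted p = 0.0120). The difference of Chdh was -3.52 without cisplatin replicate 1 and -4.83 without cisplatin replicate 3. Glyat, which joins glycine to acyl groups, went from 16.21, 16.40 and 16.29 to 13.48, 13.46 and 13.33. Outside the list Nat8f1, an N-acetyltransferase family gene, fell by 3.49 ± 0.38 and Ak4, an adenylate kinase gene of mitochondria, by 3.29 ± 0.33.

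Of 11 genes of gluconeogenesis, glycolysis and the citric acid cycle 5 fell and 1 rose. That share of falls is near that of all named genes, of which 186 of 401 fell. The count of falls was 4 without cisplatin replicate 1, 3 without any other single whole kidney array and 2 without scaling. Fbp1, the gluconeogenic fructose bisphosphatase gene, went from 15.34, 15.62 and 15.63 to 11.90, 12.53 and 12.29, 10.3% of the saline signal (limma adjusted p = 0.000148). Glud1, the glutamate dehydrogenase gene, and Slc37a4, the glucose 6-phosphate carrier gene, fell by 2.20 ± 0.36 and 1.72 ± 0.32, neither of them without scaling (limma adjusted p = 0.0643 and 0.121). Pc, the pyruvate carboxylase gene, and G6pc1, the glucose 6-phosphatase gene, stood at -1.56 ± 0.45 and -1.55 ± 0.61 without passing (limma adjusted p = 0.0543 and 0.165). Pdp1, which activates pyruvate dehydrogenase, rose by 2.20 ± 0.40, though not with the fit limited to the 6 whole kidney arrays (limma adjusted p = 0.0841).

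Fatty acids are the main fuel of the proximal tubule. Of 13 named fatty acid and peroxisome genes 9 fell and none rose, beside 186 falls among all 401 named genes. Without scaling 3 of the 13 fell. Cyp4a8, a fatty acid hydroxylase gene, went from 14.00, 13.85 and 13.95 to 11.16, 10.91 and 10.45, and Decr2, a peroxisomal reductase gene, from 13.05, 13.12 and 13.46 to 10.16, 11.06 and 10.46. Amacr, of branched-chain fatty acid breakdown, and Acadvl, the very long chain acyl-CoA dehydrogenase gene, fell by 2.21 ± 0.29 and 2.16 ± 0.43, the latter not without scaling (limma adjusted p = 0.0546). In contrast none of 6 named genes of the respiratory chain and mitochondrial membranes passed, although all 6 values were negative, with a median of -0.92. In limma 5 of them had an unadjusted p under 0.05, as did 5438 of all 26601 probes. With the variance trend 3 passed, beside 2653 of all probes. Ndufs1, a subunit gene of respiratory complex I, had 14.48, 14.58 and 14.43 against 13.26, 13.57 and 13.56 (-1.03 ± 0.31, limma adjusted p = 0.0656), and was among those that passed with the variance trend (limma adjusted p = 0.00416). Whether this list differs from the fatty acid list was not tested.

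Most named glutathione genes fell, as did 186 of all 401 named genes. Of 10 named Nrf2 and glutathione genes 7 fell, a count that was also 7 when any single whole kidney array was left out, 6 with median centring, 5 with either fit over the 6 arrays and 4 without scaling. Gss, which encodes glutathione synthetase, went from 15.58, 15.75 and 15.88 to 13.57, 13.41 and 13.15 (-2.36 ± 0.35, limma adjusted p = 0.00129). Gsr, the glutathione reductase gene, went from 12.22, 11.87 and 12.48 to 10.21, 10.59 and 8.70, with the lowest array well below the rest, and did not pass with the fit limited to the 6 whole kidney arrays (limma adjusted p = 0.0945). Osgin1, a gene of the oxidative stress response, fell by 3.13 ± 0.56. Gstt2 and Gsta2, glutathione transferase genes, fell by 2.39 ± 0.43 and 2.00 ± 0.29, the latter not without scaling (limma adjusted p = 0.102). Gpx2, which encodes a glutathione peroxidase of epithelia, moved the other way, from 10.04, 9.67 and 10.51 to 13.86, 14.20 and 13.87, a rise of 3.90 ± 0.35 (limma adjusted p = 5.93e-05). Rgn, which encodes the calcium-binding lactonase regucalcin, had 14.77, 15.07 and 14.97 against 10.79, 11.21 and 11.44, 7.23% of the saline signal. Fmo4, a flavin monooxygenase gene, fell by 3.13 ± 0.43.

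Whole kidneys were last set against isolated proximal tubules of rats given the same dose, which share no array with them, and the difference between the tissues in the cisplatin effect was tested. In tubules 5.84% of probes passed for that dose against saline. For the difference 10 of 26601 probes passed (0.0376%), 5 in each direction, beside 2867 at an unadjusted p under 0.05. The named ones are Nrg1, Asns and Tnfsf13. Nrg1 had log2 signals of 10.38, 10.39 and 11.34 in saline kidneys and 6.94, 6.75 and 8.18 after cisplatin, but 10.15, 10.23 and 8.97 in saline tubules and 11.69, 10.60 and 11.55 after cisplatin. It thus fell in whole kidneys, by 3.41 ± 0.49, and stood at 1.497 ± 0.49 in tubules without passing there (limma adjusted p = 0.107), a difference of -4.91 ± 0.70 (limma adjusted p = 0.0280). Asns, which makes asparagine and is induced by amino acid shortage, had 8.26, 6.97 and 8.08 against 7.66, 7.54 and 6.47 in whole kidneys, and 6.41, 5.68 and 6.52 against 10.36, 10.12 and 10.20 in tubules. The groups overlapped in whole kidneys and were far apart in tubules, with a difference of -4.57 ± 0.64 (limma adjusted p = 0.0280). Its signals in whole kidneys and saline tubules were dim and are not known to be above background. The size of this difference is uncertain for that reason. Tnfsf13 had 11.59, 11.27 and 11.42 against 14.27, 13.25 and 13.48 in whole kidneys, and 13.11, 13.28 and 13.30 against 12.17, 12.22 and 12.62 in tubules. Its rise in whole kidneys was 3.14 ± 0.46 above the value in tubules (limma adjusted p = 0.0313). None of the 3 differences passed without scaling (limma adjusted p between 0.0912 and 0.221). When each of the 12 arrays was left out in turn, Asns passed in 5 cases, Nrg1 in 3 (without tubule cisplatin replicate 2 or whole kidney cisplatin replicate 2 or 3) and Tnfsf13 in 1 (without whole kidney cisplatin replicate 2), with limma adjusted p up to 0.107. The cases in which Asns passed left out tubule cisplatin replicate 2, whole kidney saline replicate 2 or whole kidney cisplatin replicate 1, 2 or 3.

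**Figure D4:**
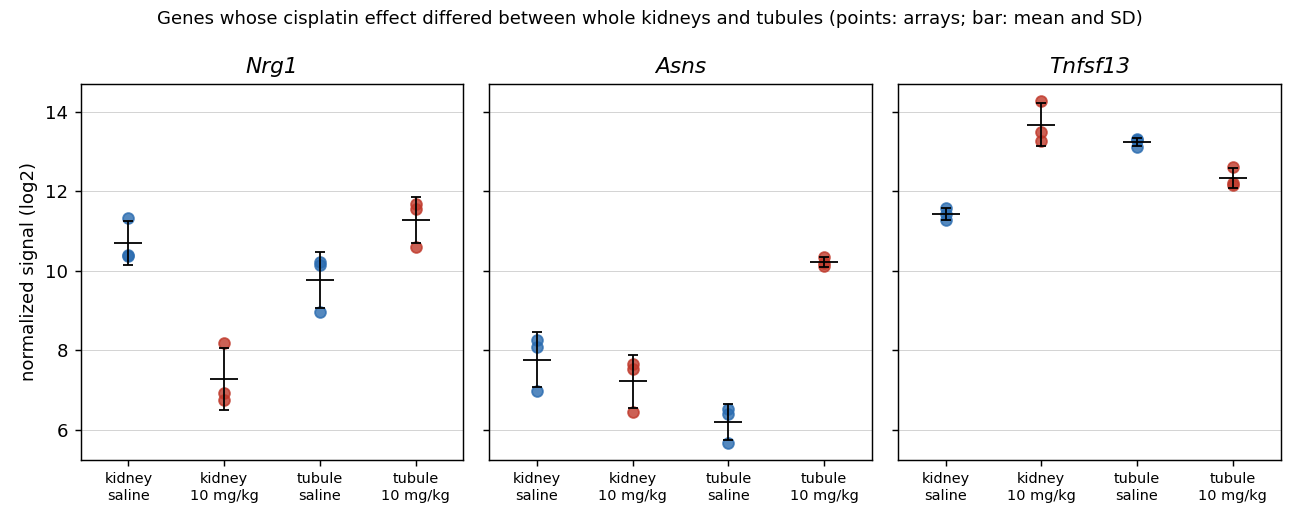
Normalized log2 signals of Nrg1, Asns and Tnfsf13 on the 3 arrays of each group, with the mean and SD in black. The cisplatin arrays lie below the saline arrays for Nrg1 in whole kidneys, above them for Asns in tubules and above them for Tnfsf13 in whole kidneys. In tubules Tnfsf13 did not pass (limma adjusted p = 0.156).

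For some genes called in whole kidneys the value in tubules was small, though the difference did not pass. Guca2a stood at 0.63 ± 0.44 in tubules (limma adjusted p for the difference = 0.0844), Gss at 0.37 ± 0.35 (limma adjusted p for the difference = 0.0798) and Osgin1 at 0.04 ± 0.56 (limma adjusted p for the difference = 0.166). Psat1, of serine synthesis, which is listed with Asns among stress response genes, fell by 2.64 ± 0.35 in whole kidneys and by 2.57 ± 0.35 in tubules. No other of the 6 named genes of that list passed in whole kidneys.

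**Figure D5:**
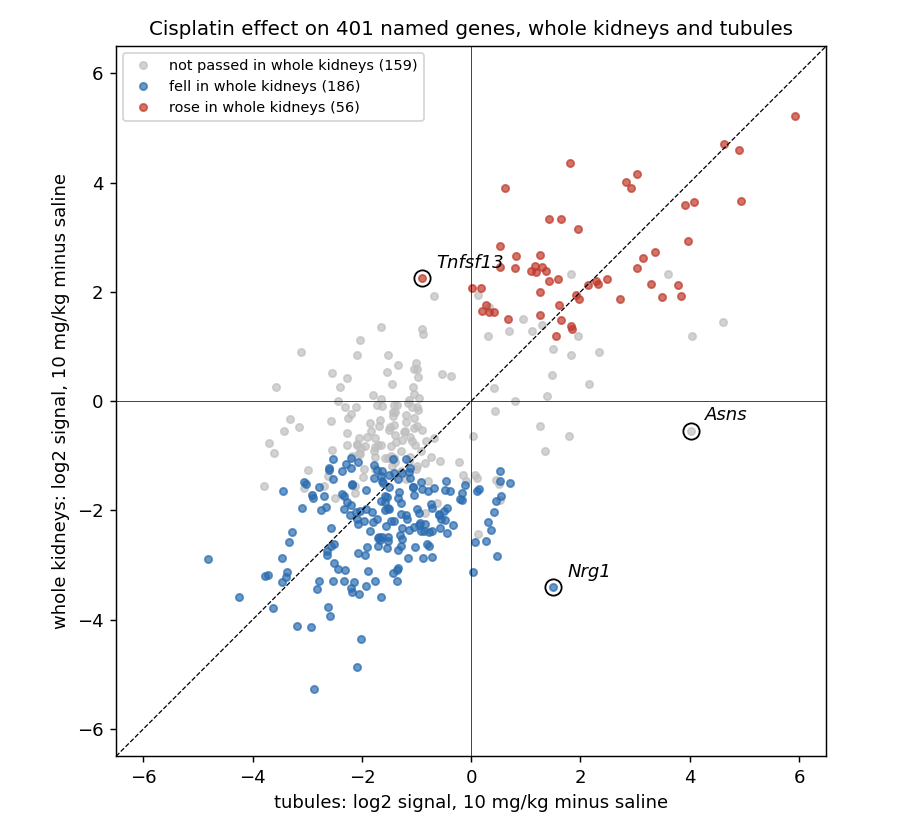
Log2 change after 10 mg/kg cisplatin in isolated tubules (x axis) and in whole kidneys (y axis) for the 401 named genes, coloured by their call in whole kidneys, with the line of equal change dashed. The ringed genes Nrg1, Asns and Tnfsf13 lie far from that line.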

How the data were processed

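Total RNA of the 6 whole kidney samples was hybridised as digoxigenin-labelled cRNA, per the labels' protocols. The authors deposited 1 linear intensity per probe and array, and no software, background correction or detection call is given in the sources used here. The authors also deposited a table of 1219 probes, in which each value was found to be the ratio of that intensity to 1 constant per array. From these deposited intensities log2 signals were computed and quantile normalized over the 15 arrays of the study. Group means were fitted over all 15 arrays with limma 3.58.1 in R 4.3.3 (lmFit, eBayes). Two-sided p-values were adjusted by Benjamini-Hochberg across the 26601 probes that had 2 or more values per group, and 256 were left out. Means carry the SD and differences the SE of the fit, and the number of arrays limits the precision.

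Symbols came from GEO's platform annotation: 401 probes had 1 symbol, 2 had several and 26454 had none, and all 401 matched RefSeq GRCr8. Genes could be named if among the 25 largest rises or 25 largest falls with separate groups, in 45 gene lists or past the tissue difference. Not all of these genes are described. The members and lists were chosen with earlier results of these data known. Sensitivity was assessed by median centring, no scaling, other array sets, array weights, a variance trend, probe filters, the series table, a replicate block and leaving out arrays. The fit was also run on simulated independent normal noise with shifts added. That run holds no scaling difference or outlying array, so it cannot speak to those.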

Additional observations from a re-analysis of the deposited data

Results flagged for a closer look

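The effect of 10 mg/kg cisplatin differed between whole kidneys and isolated tubules, by a test of the difference itself, for 10 probes, of which 3 are named. Whole kidneys minus tubules, the difference was -4.91 for Nrg1, -4.57 for Asns and 3.14 for Tnfsf13 on the log2 scale (limma adjusted p = 0.0280, 0.0280 and 0.0313). Nrg1 was lower on 3 of 3 cisplatin arrays of whole kidneys and higher on 3 of 3 of tubules than all saline arrays of the same tissue. Asns in whole kidneys and saline tubules, and Nrg1 in whole kidneys after cisplatin, had dim signals that may not be above background. The count of 10 ranged from 0 to 16 when single arrays were left out.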

How the results depend on the processing

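For whole kidneys 1717 probes passed; 675 did so with median centring, 356 without scaling, 672 with quantile normalization and fit over the 6 whole kidney arrays, 519 with only the 6 arrays compared, 2653 with the variance trend, 749 of 1219 with series table values, and 1175 to 1392 when single arrays were left out. Among all named genes 242 were called; the totals, which can include other genes than those 242, were 158 with median centring, 99 without scaling, 155 and 134 over the 6 arrays alone, and 194 to 213 without single arrays. Among list members 142 were called, and the totals were 70 without scaling, 93 with only the 6 arrays compared, and 118 to 129 without single arrays. For the tissue difference 10 passed, but 2 with median centring, 2 without scaling, 16 with array weights, 0 to 16 without single arrays and, as alternatives chosen after seeing the data, 304 with the variance trend, 88 without the dimmest probes and 176 of 1219 with series table values. With the replicate block 1115 probes passed in whole kidneys and 0 for the difference (2692 at an unadjusted p under 0.05). The labels give no pairing, same-numbered arrays did not deviate together (correlations of -0.00328, 0.00541 and -0.0232), and no cisplatin array correlated best with its own number. Without scaling the median tissue difference over all probes was 0.28. Of 1819 values for 114 named genes in whole kidneys under the alternatives, none changed sign, 107 lost the call and 24 gained it. The cause of these changes was not tested, and some of the fits also had fewer arrays or probes. Dim signals may not be above background.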
